A study of Mus musculus with 2 samples.

Results

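The 10 genes described here encode the hypoxia-inducible transcription factors (HIFs: Hif1a, Epas1, Hif3a and their partner Arnt), the oxygen sensors and the ligase component that act on them (Egln1, Egln2, Egln3, Hif1an and Vhl), and Bnip3, a mitochondrial protein whose gene is a HIF target. They were taken by gene symbol, through the Ensembl identifiers of GENCODE M21. The rule used no measured value, but the genes were chosen with earlier results of these data known. All 10 were found, with 37 annotated transcripts, among 43346 Ensembl genes, of which 21461 were nuclear protein-coding genes. The data are total RNA-seq of whole hearts from B6NCrl mouse embryos at 12.5 days, males and females pooled, with no treatment or mutation named in the labels. There is 1 group of 2 libraries, numbered as biological replicates 1 and 2, each made from 10 ng of RNA longer than 200 nucleotides. With 1 group there is no contrast between conditions, and with 2 libraries a two-sided exact sign test cannot give a p below 0.5. No p-value is given for a difference, and values are given for each library with their spread.

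In well-oxygenated cells the EGLN enzymes use oxygen and 2-oxoglutarate to hydroxylate prolines of the HIF alpha subunits, and the VHL protein then binds the hydroxylated subunit and brings it to a ubiquitin ligase for degradation. Hif1an hydroxylates an asparagine near the end of the subunit, which blocks its binding to the coactivators CBP and p300. When oxygen is low the alpha subunits persist, pair with ARNT and switch on genes of glycolysis, vessel growth and mitophagy, and mice that lack Hif1a die at midgestation with malformed hearts and vessels. Because this control acts on protein, RNA levels say which components were transcribed, not how active the pathway was.

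The sites at which oxygen marks the alpha subunits are shown first, since they tie the sensors to their substrates. They were found by translating the coding part of the leading transcript of each gene (GENCODE M21, mm10) and searching it for LxxLAP, where x is any residue, and for CEVN. The codon of the proline, or of the asparagine in CEVN, is in capitals, and each sequence is written 5′ to 3′ on the coding strand.
Hif1a first LxxLAP site, chr12:73939683-73939712, plus strand: gatgctctcactctgctggctCCAgctgcc
Hif1a second LxxLAP site, chr12:73941970-73941999, plus strand: ttagatttggagatgctggctCCCtatatc
Hif1a CEVN site, chr12:73945611-73945640, plus strand: agttacgattgtgaagttAATgctcccata
Epas1 first LxxLAP site, chr17:86824564-86824593, plus strand: gaggaactggcccagttggccCCCacccca
Epas1 second LxxLAP site, chr17:86827507-86827536, plus strand: ctggatttggagaccttggcaCCCtacatc
Epas1 CEVN site, chr17:86831010-86831039, plus strand: agatatgactgtgaggtgAACgtgcccgtg
Hif3a LxxLAP site, chr7:17041199-17041228, minus strand: ctggacttggagatgctggccCCCtacatc
The Hif1a prolines are codons 402 and 577 of 836 and its asparagine is codon 813. In Epas1 the prolines are codons 405 and 530 of 874 and the asparagine is codon 851. The Hif3a reading frame, of 664 codons, had 1 LxxLAP match, with its proline at codon 489, and no CEVN match. A match describes these letters and is not a measurement of hydroxylation.

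Levels are given in TPM, the length-scaled share of each gene in its library, which divide reads by transcript length and so allow genes to be set against each other. All 10 genes were detected, that is, at 1 TPM or more in both libraries, a rule that 57.5% of the nuclear protein-coding genes met. Their levels spanned a wide range, and Bnip3 and Hif1a stood well above the other 8. Bnip3 was at 254.46 TPM in replicate 1 and 252.37 TPM in replicate 2, a level above 97.8% of protein-coding genes. Hif1a was at 179.19 and 191.24 TPM, above 96.8% of them. The next gene, Egln2, averaged 46.5 ± 0.672 TPM (SD, n = 2), and the lowest, Egln3, averaged 6.08 ± 0.120 TPM. The median protein-coding gene was at 3.64 TPM and the median detected one at 18.9 TPM, so Egln1, Epas1 and Egln3 lay below the median of detected genes and the other 7 above it.

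**Figure D1:**
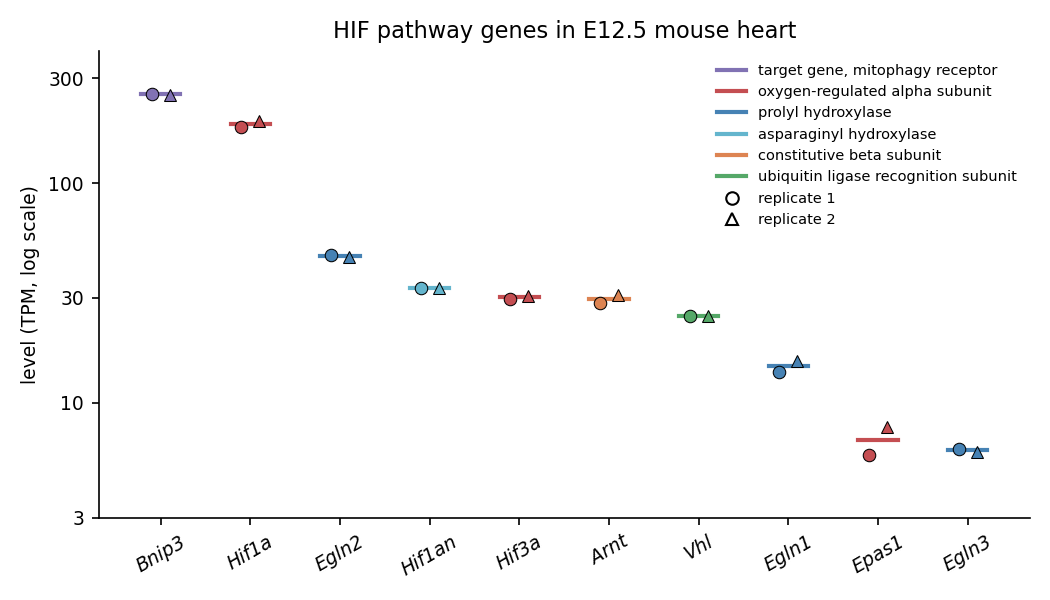
Level of each of the 10 genes in TPM on a log axis, with 1 point per library and a bar at the mean. Bnip3 and Hif1a are above 100 TPM, 5 genes lie between 24.8 and 46.5 TPM, and Egln1, Epas1 and Egln3 are the lowest.

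The order of the levels was Bnip3, Hif1a, Egln2, Hif1an, Hif3a, Arnt, Vhl, Egln1, Epas1 and Egln3. Neighbours were called apart where the log2 ratio of TPM + 0.1 pointed the same way in replicates 1 and 2 and its mean exceeded 3 standard errors, with the error taken from the replicate spread of genes of like abundance. By this rule 6 of the 9 neighbouring pairs were apart, and 41 of all 45 pairs of the 10 genes. The share of called pairs over all genes was not computed, so these counts do not set the 10 genes apart from others. Hif1an over Hif3a, at 1.10 ± 0.0271, Hif3a over Arnt, at 1.02 ± 0.0326, and Epas1 over Egln3, at 1.11 ± 0.252, were not (ratio of TPM ± SD, n = 2). Hif3a and Arnt changed places between the libraries, as did Epas1 and Egln3. Arnt over Vhl, at 1.20 ± 0.0615, passed the rule but did not when replicate 2 was left out (log2 ratio 0.21, SE 0.09). With the length of the leading transcript alone, a setting chosen after the values were seen, Arnt over Vhl was 0.995 and not apart, and Hif1an over Hif3a was 1.37 and called apart. In reads not divided by length, also chosen after the values were seen, all 9 neighbouring pairs were apart and 2 of them turned round, with Bnip3 at 0.515 of Hif1a and Egln2 at 0.489 of Hif1an. The order is therefore one of TPM, in which a long transcript needs more reads to reach the same level.

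Hif1a (ENSMUSG00000021109.9, chr12:73901375-73947530, plus strand, mm10) encodes the alpha subunit found in most cell types and was the main HIF alpha transcript of these hearts. It was counted with 18363.38 and 17328.4 reads and took 83.5% and 83.3% of the summed TPM of the 3 alpha genes. Hif3a took 13.9% and 13.4%, and Epas1 2.68% and 3.37%. The alpha genes together averaged 222 ± 10.6 TPM.

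Epas1 (ENSMUSG00000024140.9, chr17:86753700-86833410, plus strand), which encodes HIF-2 alpha and is known for its expression in endothelium, was at 5.76 TPM in replicate 1 and 7.74 TPM in replicate 2, from 709 and 861 reads. It was the least alike of the 10 between libraries, at 1.34-fold. The intervals the authors deposited for it, 5.22 to 6.04 and 7.04 to 8.05 TPM, did not overlap. Those of Hif1a, 172 to 179 and 183 to 190.4 TPM, did not overlap either, at 1.07-fold. Each interval is for 1 library and does not include the spread between replicates. The intervals lie around the deposited posterior mean TPM, not around the TPM used here. For Hif1a that mean was 175.34 in replicate 1 and 186.61 in replicate 2. The Hif1a TPM of 191.24 in replicate 2 is above its interval. Epas1 was at 0.0363 ± 0.00589 of the Hif1a level. In a whole heart, fewer cells of a type and less RNA per cell cannot be told apart. The summed level of 8 endothelial markers, all detected, was 308 TPM in replicate 1 and 314 TPM in replicate 2. Single markers went both ways, with log2 ratios of replicate 2 over replicate 1 from -0.45 for Sox17 to 0.1 for Pecam1 and Cdh5. Whether these markers bear on the Epas1 difference was not tested.

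Hif3a (ENSMUSG00000004328.11, chr7:17031507-17062427, minus strand) encodes the alpha subunit that lacks the CEVN site above and whose forms include inhibitors of the other HIFs. It was at 29.77 and 30.67 TPM, 4.57 ± 0.853 times the Epas1 level and 0.163 ± 0.00407 of the Hif1a level. Both ratios were called apart. The Hif3a value rests on its mean transcript length, because its 2 main transcripts differ widely in length. Its 3153 and 3184 reads gave 30.2 ± 0.636 TPM as deposited. With the 6402 bases of Hif3a-202 alone they would give 22.4 ± 1.75 TPM, and with the 2206 bases of Hif3a-201 alone 67.0 ± 5.25 TPM, settings chosen after the values were seen.

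Arnt (ENSMUSG00000015522.14, chr3:95434388-95497240, plus strand) encodes the beta subunit with which each alpha subunit pairs. It was at 28.6 and 30.83 TPM, so that the summed alpha TPM was 7.51 times Arnt in replicate 1 and 7.45 times in replicate 2. Arnt2, a relative known from the mouse nervous system, was at 3.49 and 3.95 TPM, 0.125 ± 0.00431 of Arnt (0.211 in reads not divided by length). Arnt was at 0.160 ± 0.00113 of Hif1a and 4.47 ± 0.694 times Epas1.

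The wider bHLH-PAS family, the DNA-binding proteins to which the HIFs belong, was low beside Hif1a and Arnt. Of 15 relatives, 8 (53.3%) were detected, a share near that of all protein-coding genes, and their median was 1.94 TPM. At a threshold of 5 TPM 4 of the 15 were detected. The clock genes led, with Per1 at 7.66 ± 0.226, Clock at 6.86 ± 0.530, Per3 at 6.42 ± 0.898 and Arntl, the partner of Clock, at 5.67 ± 0.573 TPM. Per2, another period gene, was at 3.13 ± 0.226 TPM. Arntl2, a relative of Arntl, averaged 2.02 ± 0.368 TPM and Ahr, the dioxin receptor, 1.94 ± 0.205 TPM. Below 1 TPM were Npas3 at 0.940, Ahrr, the repressor of Ahr, at 0.635, Npas2, which can stand in for Clock, at 0.545 and Npas1 at 0.195 TPM (means). The neuronal factors Npas4, Sim1 and Sim2 were under 0.1 TPM in both libraries, from 5 reads or fewer in each.

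Among the prolyl hydroxylases Egln2 was the highest and Egln3 the lowest, and all 3 pairs were called apart. Egln2 (ENSMUSG00000058709.7, chr7:27158658-27166802, minus strand) was at 46.95 and 46.0 TPM and took 70.1% and 68.2% of the summed EGLN TPM. Egln1 (ENSMUSG00000031987.5, chr8:124908587-124949324, minus strand), the enzyme whose loss alone raises HIF alpha in most mouse tissues, was at 13.83 and 15.43 TPM. Egln3 (ENSMUSG00000035105.5, chr12:54178981-54203860, minus strand), itself a HIF target, was at 6.16 and 5.99 TPM, from 373 and 328 reads. Egln2 was at 3.19 ± 0.292 times Egln1 (1.82 in reads not divided by length), and Egln3 at 0.417 ± 0.0404 of Egln1 and 0.131 ± 0.000697 of Egln2. The alpha genes summed to 3.21 times the EGLN genes in replicate 1 and to 3.41 times in replicate 2. These are ratios of RNA and do not give the ratio of enzyme to substrate.

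Hif1an (ENSMUSG00000036450.4, chr19:44562850-44576274, plus strand), the asparaginyl hydroxylase, was at 33.32 and 33.15 TPM. In TPM it stood at 2.28 ± 0.184 times Egln1 and below Egln2, which was 1.40 ± 0.0152 times as high, and both differences were called. In reads not divided by length Hif1an was at 3.73 times Egln1, and Egln2 was at 0.489 of Hif1an. P4htm, a membrane-bound prolyl hydroxylase that can also act on HIF alpha, averaged 16.3 ± 1.29 TPM and was not apart from Egln1 in TPM (1.12 ± 0.00211), although in reads not divided by length it was at 0.486 of Egln1 and called apart. All 22 of the other oxygen-dependent dioxygenases listed were detected, against 57.5% of nuclear protein-coding genes, with a median of 30.7 TPM. The highest were Asph, an aspartyl hydroxylase, at 102 ± 0.148 TPM, Jmjd6, a lysyl hydroxylase, at 63.2 ± 0.318 TPM, and the collagen prolyl hydroxylase subunits P4ha2 and P4ha1, at 48.3 ± 3.39 and 48.3 ± 0.106 TPM. Egln2 was close to P4ha2, at 46.95 TPM against 50.71 TPM in replicate 1 and 46.0 TPM against 45.92 TPM in replicate 2, so their order changed between the libraries. Egln1 and Egln3 lay below the median of that list.

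Vhl (ENSMUSG00000033933.9, chr6:113623959-113631633, plus strand), the substrate receptor of the ligase, was at 24.77 and 24.83 TPM, from 1576 and 1428 reads. It was below the 3 subunits it works with that were paired with it. Elob and Eloc, the elongins that join VHL to the cullin, were at 26.7 ± 0.517 and 9.25 ± 0.145 times Vhl, and the cullin Cul2 at 2.39 ± 0.185 times. In reads not divided by length these ratios were 4.04 for Elob, 2.74 for Eloc and 2.42 for Cul2. Elongins and cullins also serve other ligases. All 18 genes listed for the ligase and for HIF stability were detected, against 57.5% of nuclear protein-coding genes, with a median of 154 TPM. Hsp90ab1, a chaperone gene, was the highest at 1055 ± 0.912 TPM, then Elob at 661 ± 11.7 TPM. Hsp90aa1, also a chaperone gene, at 525 ± 9.22 TPM and Nedd8, the modifier that activates cullins, at 349 ± 3.17 TPM were next. Hif1an was at 1.34 ± 0.00714 times Vhl, or 2.79 times in reads not divided by length. No read was assigned to the pseudogene Vhl-ps1.

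The 11 genes listed as HIF coactivators or their competitors all passed the detection rule and had a median of 18.4 TPM. The same rule was met by 57.5% of nuclear protein-coding genes. Pkm, whose product is a glycolytic enzyme that can bind HIF-1, was at 1350.2 ± 2.35 TPM and Cited1, a CBP and p300 binding protein, at 801 ± 56.7 TPM. Cited2, which competes with HIF alpha for CBP and p300 and is needed for heart development in the mouse, averaged 35.4 ± 0.608 TPM, and Cited4 34.6 ± 1.49 TPM. Hif1a was thus above Cited2 and Cited4 and below Cited1.

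**Figure D2:**
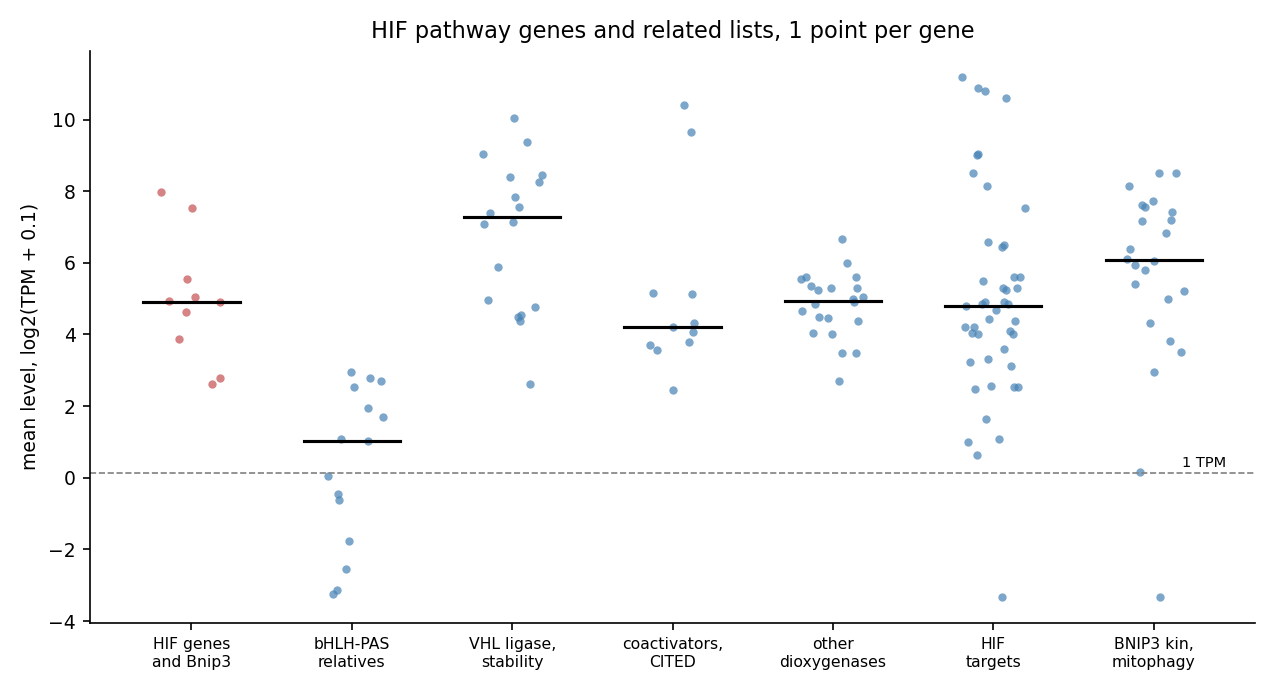
Mean level, as log2 of TPM + 0.1, of the 10 genes and of every gene in the 6 related lists, with 1 point per gene, a bar at each median and a dashed line at 1 TPM. The bHLH-PAS relatives have the lowest median, 1.94 TPM, and the ligase and stability genes the highest, 154 TPM.

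Bnip3 (ENSMUSG00000078566.4, chr7:138890836-138909519, minus strand) encodes a protein of the outer mitochondrial membrane that recruits the autophagy machinery through an LC3-interacting motif, WxxL. Its motif is shown because it is the part that links Bnip3 to mitophagy. It lies at codons 13 to 16 of 187. The 30 bases shown begin in the first exon and cross an exon junction ahead of the motif. They therefore fall between chr7:138898803 and chr7:138909366. The tryptophan and leucine codons are in capitals.
Bnip3 WxxL motif, minus strand: cagggctccTGGgtagaaCTGcacttcagc
Bnip3 was counted with 9711.35 and 8701.81 reads and in TPM was 1.37 ± 0.0710 times Hif1a, although in reads not divided by length it was at 0.515 of Hif1a. Bnip3l, its closest relative and also a mitophagy receptor, was higher still, at 369.93 and 352.7 TPM, 1.43 ± 0.0398 times Bnip3. In reads not divided by length Bnip3l was lower than Bnip3, at 0.733 of it, so that this order depends on length. Bnip3l-ps, a pseudogene of Bnip3l, held 65.28 and 58.38 reads.

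Of 24 genes listed as Bnip3 relatives and mitophagy genes, 22 passed the detection rule (91.7%, against 57.5% of nuclear protein-coding genes). The median of the 24 was 67.6 TPM, and Bnip3 was above all but the highest 3. Gabarap, a partner of LC3-interacting motifs, led at 366 ± 2.26 TPM, followed by Bnip3l at 361 ± 12.2, Phb2, an inner-membrane mitophagy receptor, at 283 ± 3.21 and Rheb, a GTPase, at 213 ± 4.98 TPM. Calcoco2 was listed at 0 in both libraries.

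Of 45 genes listed as HIF targets, 44 were detected (97.8%, against 57.5% of nuclear protein-coding genes), with a median of 27.8 TPM. The lists were chosen with earlier results of these data known, so this share is not a result about the pathway. The highest of the 45 were glycolytic genes and Mif, a cytokine gene. Ldha, which makes lactate from pyruvate, was at 2342 ± 15.4 TPM, Mif at 1871 ± 80.7, Eno1, encoding enolase, at 1773 ± 23.2 and Aldoa, encoding aldolase, at 1553 ± 23.5 TPM. Epo, the red-cell hormone gene known as a HIF target of kidney and liver, was listed at 0 in both libraries, where a limit of 3 reads equals 0.0896 and 0.0978 CPM. Vegfa, the vessel growth factor gene, at 5.42 ± 0.410 TPM and Car9, a carbonic anhydrase gene used as a hypoxia marker, at 1.46 ± 0.205 TPM were near the low end and were named after their values were seen. These RNA levels do not measure HIF activity, and whether HIF contributed to any of them was not tested.

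Transcript shares are shares of a gene's TPM, in which a short transcript counts for more than its reads. Epas1, Egln1 and Egln3 have 1 transcript each in the files. In each of the other 7 genes the same transcript led in both libraries. The same held in 94.1% of the 6095 genes that averaged 10 TPM or more and had 2 transcripts or more at 1%. Vhl is not among those 6095, since only 1 of its transcripts reached 1%. Vhl-201 took the whole, Bnip3-201 96.8% and 96.5%, Egln2-201 94.3% and 94.1%, and Hif1an-201 91.0% and 90.8%. Hif1a, Hif3a and Arnt were divided among several coding transcripts.

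**Figure D3:**
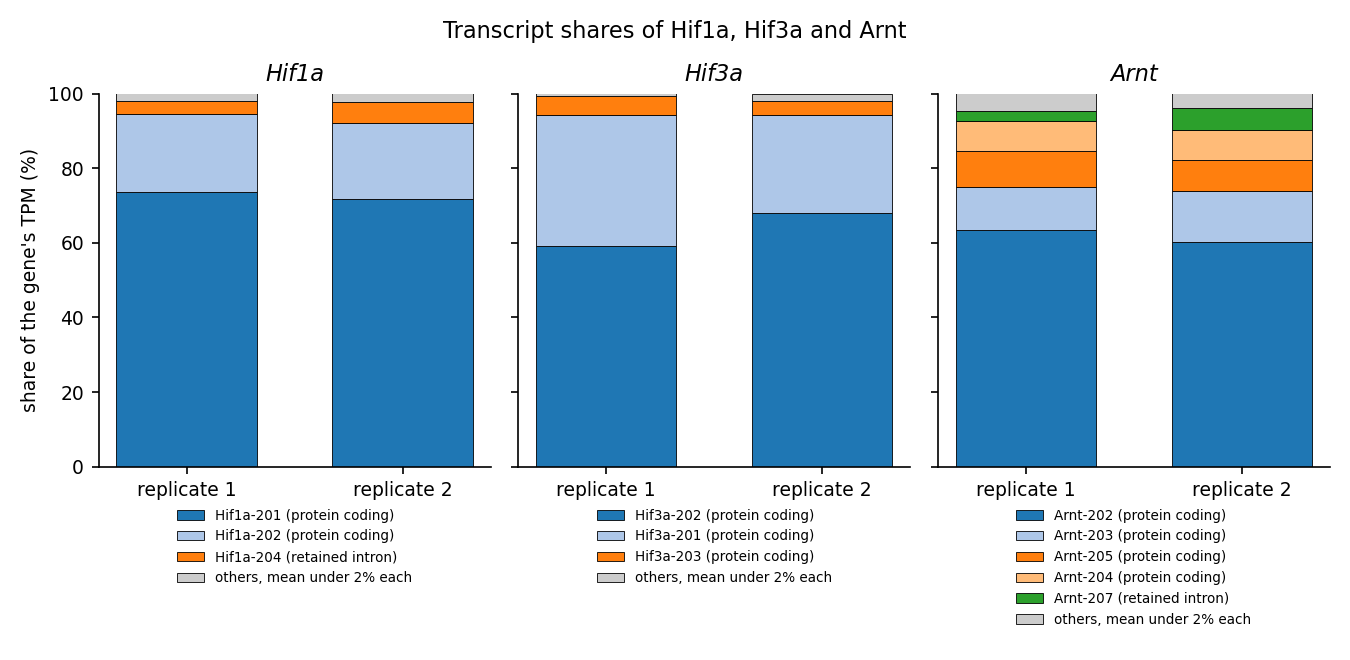
Stacked bars of the share (%) of Hif1a, Hif3a and Arnt TPM taken by each transcript in replicates 1 and 2, with transcripts averaging under 2% summed in grey. The leading Hif3a transcript has 59.1% in replicate 1 and 68.1% in replicate 2, the largest difference of the 3 genes.

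Hif1a-201 took 73.5% and 71.6% of Hif1a TPM and Hif1a-202 21.0% and 20.4%. They start from different first exons, whose starts are 6529 bases apart. The first exon of Hif1a-202, chr12:73901375-73901498, has no coding base, and that of Hif1a-201, chr12:73907904-73908324, holds the start of its reading frame. Hif1a-201 also carries 42 coding bases that Hif1a-202 lacks, at codons 512 to 525, between the 2 LxxLAP sites. The coding stretches that set Hif1a-201 apart are shown, except 1 further base, chr12:73926557, that is coding in Hif1a-201 only. The start codon is in capitals in the first and the whole insert in the second.
Hif1a-201 start, chr12:73908290-73908324, plus strand: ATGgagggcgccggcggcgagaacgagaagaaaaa
Hif1a-201 insert, chr12:73941688-73941729, plus strand: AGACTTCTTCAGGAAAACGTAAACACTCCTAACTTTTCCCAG
The files assign whole transcripts, so the use of the first exon and of the insert is not measured separately. Hif1a-201 held 14392.27 and 13530.18 reads, with a deposited posterior SD of 233.81 and 203.4 reads, and Hif1a-202 held 3806.98 and 3564.91 reads. Hif1a-204, a retained-intron transcript, held 89.52 and 140.52 reads.

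Hif3a-202 took 59.1% of Hif3a TPM in replicate 1 and 68.1% in replicate 2, and Hif3a-201 took 35.2% and 26.2%. In reads the division was more uneven, with 83.1% and 88.3% on Hif3a-202 and 16.5% and 11.4% on Hif3a-201. The 8.99-point difference between libraries was larger than the largest difference of 81.9% of the 6095 genes, whose median was 4.15 points. Hif3a-201 held 521.72 and 361.74 reads with a deposited posterior SD of 34.64 and 36.12 reads. The 2 transcripts begin in first exons whose starts are 5748 bases apart, chr7:17062356-17062427 for Hif3a-202 and chr7:17056577-17056679 for Hif3a-201. Their reading frames start in those exons with the same codon, ATG, and differ in the next codons. Those starts are shown, with the start codon in capitals.
Hif3a-202 start, chr7:17062356-17062381, minus strand: ATGgcgttggggctgcagcgcgtgag
Hif3a-201 start, chr7:17056577-17056596, minus strand: ATGgactgggaccaagacag
Their last exons are 4459 and 232 bases long, so the estimate also rests on reads in the long 3′ end of Hif3a-202.

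Arnt-202 took 63.3% and 60.2% of Arnt TPM, Arnt-203 11.6% and 13.6%, Arnt-205 9.69% and 8.34% and Arnt-204 8.04% and 8.11%. Arnt had the most annotated transcripts of the 10, and 9 of its 11 were at 1% or more in at least 1 library. Some of these rest on few reads, such as Arnt-208 with 2.94 and 2.87. The mean share of its leading transcript, 61.7%, was close to the 63.6% of Hif3a. Arnt-203 has a coding exon of 45 bases that Arnt-202 lacks, and Arnt-202 has 45 coding bases that Arnt-205 lacks. Both are shown whole in capitals, since they are what the reading frames differ by, apart from 3 further bases.
Arnt-203 exon, chr3:95466793-95466837, plus strand: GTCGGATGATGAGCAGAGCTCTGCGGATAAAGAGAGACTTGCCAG
Arnt-202 stretch not in Arnt-205, chr3:95493816-95493860, plus strand: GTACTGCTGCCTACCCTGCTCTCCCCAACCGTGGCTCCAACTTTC
The deposited posterior SD of Arnt-205 was 81.03 and 76.97 reads beside 272.18 and 228.8 reads, so its share is loosely set. The Arnt-203 count of 203.3 and 232.9 reads had a posterior SD of 33.38 and 26.73 reads.

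**Figure D4:**
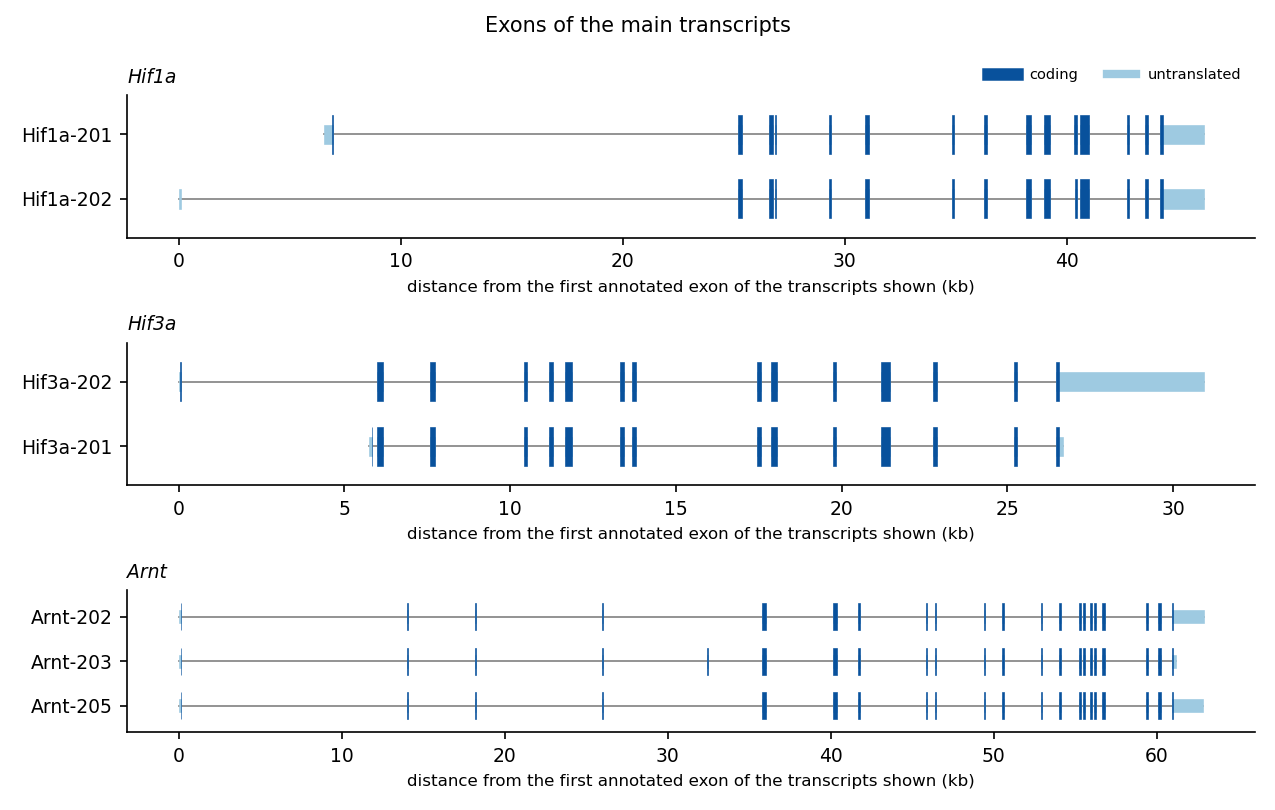
Exons of the main transcripts of Hif1a, Hif3a and Arnt, drawn to scale as distance in kilobases from the first exon shown, with tall dark boxes for coding and low pale boxes for untranslated bases. Hif1a-201 and Hif3a-201 begin downstream of the first exons of Hif1a-202 and Hif3a-202, by 6529 and 5748 bases.

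Transcripts annotated as noncoding, most of them retained introns, took 4.73% and 6.90% of Hif1a TPM, 7.41% and 9.80% of Arnt TPM and 9.00% and 9.23% of Hif1an TPM. For Hif1an this was the 1 retained-intron transcript Hif1an-202. Over all Ensembl transcripts, retained-intron forms held 4.95% and 4.89% of the TPM. The retained-intron transcript Hif1a-204 was at 3.56% of Hif1a TPM in replicate 1 and 5.79% in replicate 2. The share of all noncoding transcripts was 2.66% and 1.95% in Bnip3 and 2.11% and 1.98% in Egln2, whose noncoding transcripts include no retained intron.

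Between the 2 libraries, Epas1 differed by 1.34-fold and the other 9 genes by 1.11-fold or less. None of the 10 differed by more than 1.5-fold, a difference found in 3.56% of the 13529 protein-coding genes with a mean of 20 reads or more (higher in replicate 2 in 1.52% and lower in 2.04%), so that a count of 0 among 10 genes is close to that share. The log2 ratio of replicate 2 over replicate 1 ran from -0.04 for Egln3 to 0.42 for Epas1, with a median of 0.02 over protein-coding genes. Of the 128 genes in the related lists, 118 were detected, against 57.5% of nuclear protein-coding genes. None of the 122 with enough reads passed 1.5-fold, beside the 3.56% above. The libraries held 34751234 and 31847875 estimated reads. All 8 heart muscle markers were detected, with a sum of 20608 TPM in replicate 2 and 21000.0 TPM in replicate 1, and all 7 epicardial markers, with sums of 293 and 295 TPM. All 8 liver markers were also detected, and their sum was 72.0 TPM in replicate 2 against 258 TPM in replicate 1, each of the 8 lower in replicate 2 by more than 1.5-fold. The sum of 8 red cell markers, all detected, was 40173 TPM in replicate 2 and 44753 TPM in replicate 1. Whether liver or red cell RNA contributed to the level of any of the 10 genes was not tested.

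**Figure D5:**
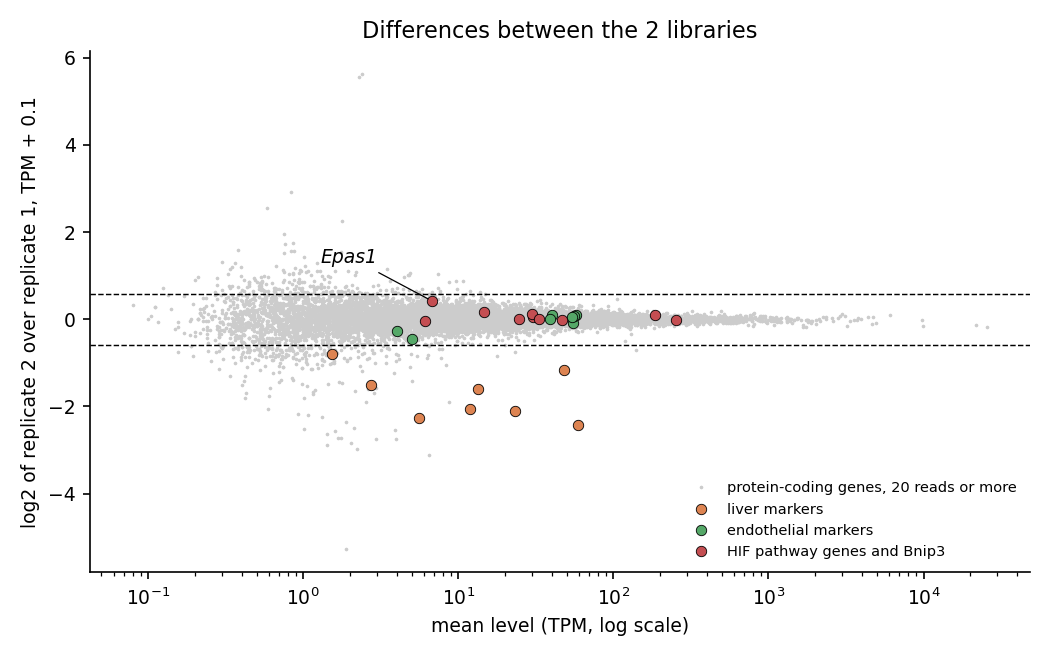
Log2 ratio of TPM + 0.1 in replicate 2 over replicate 1 against the mean TPM on a log axis, with protein-coding genes in grey, the 10 genes, liver markers and endothelial markers in colour, and dashed lines at 1.5-fold. The 10 genes lie within the lines and the 8 liver markers lie below the lower one.

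Reads from overlapping genes could not be separated by strand, since no source used here gives the strand setting. The antisense gene Gm15283, which overlaps Hif1a, held 39.62 and 40.6 reads, and Cyp2t4, which overlaps Egln2, held 2 and 0 reads.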

How the data were processed

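Total RNA-seq of mouse heart at embryonic day 12.5 was analysed in 2 libraries of 1 group, each with 10 ng of RNA and spike-ins. Per the notes that accompany each sample, the authors aligned reads to mm10 and used annotation M4. Names of the aligner and quantifier and the strand setting are not given in the sources used. The deposited expected count estimates reads per gene or transcript and need not be whole. The deposited TPM values divide by length and are shares over all listed rows, spike-ins included, and the deposited FPKM values scale by kilobase and library size. The deposited percent values give each transcript's share in its gene. The posterior SD deposited by the authors was used as a score of uncertain read assignment. The deposited interval bounds have width even where that SD is 0, as for Epas1, and were given only as a range within 1 library. The labels name separate biological replicates, and SDs measure the spread between them.

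Gene identifiers, with the version removed, were matched to GENCODE M21 (GRCm38, the build of the files), and 42462 of 43346 Ensembl genes matched. M21 also gave exons and coding sequences. The genes and lists were chosen with earlier results of these data known. Detection meant 1 TPM or more in each library. Calls between genes used the log2 ratio of TPM + 0.1, with errors from the robust replicate SD in 20 abundance bins. Ratios given with an SD are plain ratios of TPM, averaged over the libraries. Ratios given for an alternative setting come from the mean log2 ratio, with 0.1 added to each value. Differences between libraries used TPM + 0.1, 1.5-fold and a mean of 20 reads. The procedure was also run on simulated data with a fixed spread, in which the genes of a pair had the same length. That run therefore does not test how calls depend on length. Named genes were the 10, every gene of a listed pair, the 4 highest of each list, those under 0.1 TPM, those past 1.5-fold between libraries and every bHLH-PAS relative. Total estimated reads were 34751234 and 31847875. Alternatives covered thresholds, pseudocounts, FPKM, posterior means, undivided counts, transcript length, leaving out a library, and scaling by edgeR 4.0.16 or DESeq2 1.42.0, with expected counts rounded. Python 3.11.15, pandas 2.3.3, scipy 1.17.1 and R 4.3.3 were used. Protein alignments were not used here.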

Additional observations from a re-analysis of the deposited data

How the results depend on the processing

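All 10 genes stayed detected, and none passed 1.5-fold between libraries, under every alternative run for those counts, with 0.976% to 9.10% of protein-coding genes past it. Calls between neighbours in the order of levels numbered 6 in every alternative except without replicate 2 (5) and with reads not divided by length (9). Of the 16 listed pairs of related genes 15 were called, or 16 with reads not divided by length. No share of called pairs over all genes was computed. Of the related genes 118 were detected, with 121 at 0.5 TPM and 110 at 5 TPM; of the bHLH-PAS relatives 8 were detected, and 4 at 5 TPM. With posterior mean TPM, 7 of 7 genes had 1 leading transcript in both libraries. Some single values moved. With the length of the leading transcript alone, chosen after the data were seen, the log2 ratio of Arnt over Vhl was -0.01 (SE 0.07) in place of 0.26 and Hif1an over Hif3a became a call at 0.45. With reads not divided by length, P4htm over Egln1 was -1.04 in place of 0.16, Bnip3l over Bnip3 -0.45 in place of 0.51, Bnip3 over Hif1a -0.96 in place of 0.45 and Egln2 over Hif1an -1.03 in place of 0.48. Ratios that kept their direction there but moved by more than 1.5-fold included Elob over Vhl (4.04), Eloc over Vhl (2.74), Hif1an over Vhl (2.79), Hif1an over Egln1 (3.73), Egln2 over Egln1 (1.82), Arnt2 over Arnt (0.211), Hif1a over Egln2 (8.70), Egln1 over Epas1 (1.43) and Epas1 over Egln3 (2.22). Length is what this alternative removes. No paired analysis was possible because there is 1 group and its replicates have no counterpart in another. With 2 libraries the SDs are themselves loosely known, and Egln3, the lowest of the 10, rests on 373 and 328 reads.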
